A study of Mus musculus with 6 samples.

Results

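The cytosolic ribosomal protein genes were followed in regulatory T cells (Tregs) from tumour-draining lymph nodes of mice with and without the cytokine IL-33. They were taken as protein-coding genes whose symbol begins with Rpl or Rps and a digit, or is Rplp0, Rplp1, Rplp2 or Rpsa, without pseudogenes and S6 kinases, and with a mean deposited normalized count of at least 10 over the 6 libraries. This gave 81 genes of 37187 rows: 45 of the large subunit, 31 of the small subunit, and 5 others caught by the symbol pattern. The 5 were the paralogs Rpl22l1, Rps27l, Rpl7l1 and Rpl36al, and Rps19bp1, which encodes a protein that binds Rps19. Beside the symbol, members were chosen by the level over all 6 libraries. The rule did not use the difference between genotypes, but it was set with earlier results of these data known. The lowest member was Rps19bp1 with a mean of 229.7 normalized counts, and the first gene outside the threshold was Rpl39l with 7.31. All 81 passed the filter on low counts of the test.

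The 3 KO libraries (replicates 4 to 6) came from il33-/- mice on the C57BL6 background, and the 3 WT libraries (replicates 1 to 3) from C57BL6 mice. All mice carried B16.F10, a transplantable mouse melanoma line, and nodes were collected at 14 days after 300000 tumour cells had been injected under the skin. Tregs, a CD4 T cell lineage that depends on the factor Foxp3 and keeps other immune cells in check, were sorted as CD4+ CD25+ GITR+ cells, and their RNA was sequenced in bulk. The comparison asks how the absence of IL-33, an alarmin that acts through the receptor ST2, bears on the Treg transcriptome. The labels do not say whether each library came from a separate animal, so a p-value here speaks only of the spread among these libraries, which may be technical.

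Ribosomal proteins assemble with ribosomal RNA into the small subunit, which decodes the mRNA, and the large subunit, which joins the amino acids. Their mRNAs are among the most abundant in growing cells, and most begin with a pyrimidine tract (the TOP motif) that places their translation under control of the kinase mTORC1. Activated Tregs depend on mTORC1 and raise protein synthesis when they proliferate. Paralogs such as Rpl22l1 and Rps27l encode proteins close to those of their parent genes and are used to different extents between tissues.

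The promoters of the 2 paralogs discussed most below, of their parent genes, and of the 2 members with the lowest p-values are given here as 100 bases before and 20 after the RefSeq start (GRCm38.p6). Capitals mark matches, on either strand, to CCGGAAG (the core of ETS factor sites), CTTTCC (a pyrimidine-rich stretch) or ATGGCGG (the YY1 core). The intervals are chr3:28805408-28805527, plus strand for Rpl22l1, chr4:152325626-152325745, plus strand for Rpl22, chr9:66945986-66946105, plus strand for Rps27l, chr3:90213629-90213748, minus strand for Rps27, chrX:37085203-37085322, minus strand for Rpl39 and chr10:23787190-23787309, minus strand for Rps12.
Rpl22l1: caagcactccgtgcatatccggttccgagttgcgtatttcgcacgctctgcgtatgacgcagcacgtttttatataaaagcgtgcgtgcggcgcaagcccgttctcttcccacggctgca
Rpl22: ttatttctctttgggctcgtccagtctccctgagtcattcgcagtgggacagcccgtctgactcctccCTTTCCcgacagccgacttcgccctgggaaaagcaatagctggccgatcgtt
Rps27l: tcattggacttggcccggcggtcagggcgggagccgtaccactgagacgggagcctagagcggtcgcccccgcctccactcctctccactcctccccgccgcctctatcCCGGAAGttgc
Rps27: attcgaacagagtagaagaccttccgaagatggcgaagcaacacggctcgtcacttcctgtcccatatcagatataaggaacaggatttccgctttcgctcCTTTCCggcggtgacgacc
Rpl39: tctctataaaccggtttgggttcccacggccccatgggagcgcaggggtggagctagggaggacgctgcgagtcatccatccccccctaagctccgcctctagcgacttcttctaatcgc
Rps12: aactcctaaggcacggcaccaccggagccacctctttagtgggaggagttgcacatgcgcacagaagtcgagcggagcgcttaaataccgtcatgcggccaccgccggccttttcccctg
The Rps27l window holds the ETS core downstream of the start, while the windows of Rpl22 and Rps27 hold the pyrimidine-rich stretch. The windows of Rpl22l1, Rpl39 and Rps12 hold none of the 3 motifs.

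RefSeq promoters of 300 bases (250 before and 50 after the start) were matched for 61 of the 81 members, at 72 starts. CCGGAAG was found in 26 of the 72 (36.1%), against 8.86% of all 32851 mouse promoters in the table and 17.5% of the promoters of tested genes. CTTTCC was found in 36 of the 72, against 26.6% of all and 26.5% of tested genes' promoters, and ATGGCGG in 14 (19.4%), against 4.05% and 7.81%. Differences between genotypes were close with and without each motif. The median log2 fold change, KO over WT, was -0.00 in the 25 genes with CCGGAAG and 0.01 in the 36 without it. It was -0.02 in the 32 genes with CTTTCC and 0.02 in the 29 without it, and -0.02 with ATGGCGG in 11 genes and 0.01 without it in 50. A match describes letters in the window and is not evidence of a bound site.

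Total counts ran from 18071928 to 21165063 per library, and the least counted member had 201 reads in its lowest library. Levels are given below as CPM, the counts scaled to a common library size. Foxp3, the defining gene of the sorted cells, had 857, 790 and 849 CPM in KO replicates 4, 5 and 6 and 730, 803 and 719 CPM in WT replicates 1, 2 and 3. B cell markers were present and uneven: the 18 measured markers summed to 1799, 2129 and 1820 CPM in KO and to 4387, 2714 and 3648 CPM in WT, with none at 0 in any library. In bulk RNA a smaller share of Tregs and less of a transcript per Treg cannot be told apart. Of the 18, 0 were called by edgeR or limma-voom, 17 had an unadjusted p under 0.05, and 14 were lower in KO by DESeq2. The Treg and CD4 T cell list (7 tested) had 1 gene called higher in KO (Ctla4) and 4 under an unadjusted 0.05 in edgeR. Of its genes 6 had a log2 fold change above 0 and 1 below. They summed to 4874, 4682 and 4627 CPM in KO and to 3860, 4466 and 3957 CPM in WT, without overlap. The CD8 T and NK list (4 tested) had 0 called by edgeR, DESeq2 or limma-voom with 2 under an unadjusted 0.05. The myeloid list (7) had 1 lower (Siglech), the plasma cell list (3) had 1 lower (Sdc1), and the stroma, melanoma and erythroid list (4) had 2 higher (Pmel and Pecam1). Over all genes tested, edgeR called 6.50%, and 21.8% had an unadjusted p under 0.05.

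No difference in ribosomal protein transcripts was detected between KO and WT Tregs. By edgeR, 0 of the 81 members passed an adjusted p of 0.05, while 6.50% of the 13626 genes tested did (3.68% higher and 2.83% lower in KO). DESeq2 also called 0, against 8.03% of all genes (3.75% higher and 4.28% lower), and limma-voom 0, against 6.03% (3.52% higher and 2.52% lower). At an unadjusted p under 0.05 each of the 3 tools had 2 members, against 21.8% of all genes in edgeR, 17.8% in DESeq2 and 21.3% in limma-voom. Among the 7151 genes with at least 20 CPM in every library, which include 80 of the members, 6.74% were called.

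The members' differences were small as well as uncalled. Their median log2 fold change, KO over WT, was -0.00, with quartiles of -0.05 and 0.03, while the median of all tested genes was 0.00 with quartiles of -0.12 and 0.13. Among all genes at 20 CPM or more the quartiles were -0.08 and 0.07. No member differed by more than 0.25 on the log2 scale, against 27.1% of all genes, a share that includes genes of low counts and is not matched for level. The 95% confidence interval of the fold lay within 1.5-fold either way for 80 of the 81, the exception being Rps27l with an interval of 0.660 to 1.12. The median SE of the members was 0.057 on the log2 scale, and the intervals were widest for Rps27l, Rps19bp1, Rps29 and Rpl35.

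**Figure D1:**
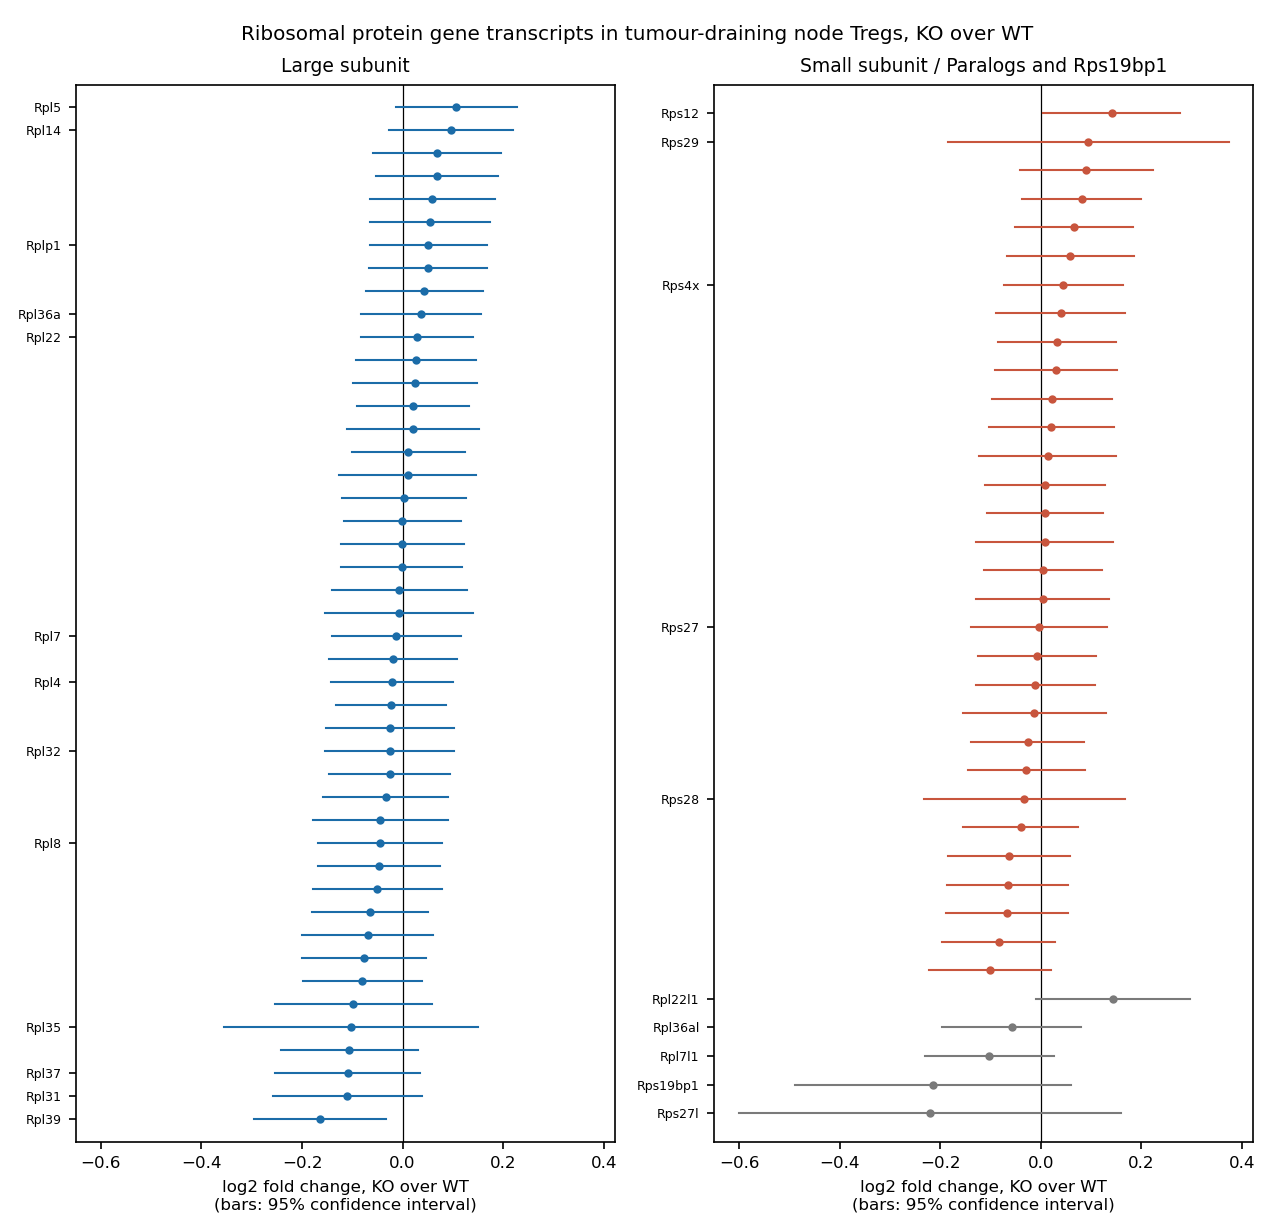
Log2 fold change, KO over WT, of each of the 81 members, with 95% confidence intervals from edgeR. Large subunit genes are on the left (blue), small subunit genes (red) and the paralogs with Rps19bp1 (grey) on the right, ordered by fold change; members singled out by the rule for named genes carry a label. Points run from -0.22 (Rps27l) to 0.14 (Rpl22l1), and only the intervals of Rpl39 and Rps12 leave out 0.

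The members took a similar part of the RNA in both genotypes. They held 4.21%, 4.35% and 4.70% of all counts in KO replicates 4, 5 and 6, and 4.49%, 4.29% and 4.43% in WT replicates 1, 2 and 3. The means were 4.42% ± 0.254 in KO and 4.41% ± 0.101 in WT (SD, n = 3 each), and the KO libraries spanned the WT range on both sides. As a share of summed FPKM, which counts reads per transcript length, the members held 11.7% ± 0.412 in KO and 11.6% ± 0.299 in WT. Pseudogenes named as ribosomal protein copies took 0.0128% to 0.0147% of counts, and the sources used here do not state how reads with several matches were handled.

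Per transcript length, the members ranged from 13.7 to 2643 FPKM. Rplp1, an acidic protein of the stalk that recruits elongation factors, had the highest level, with 2686 ± 114 FPKM in KO and 2599 ± 76.7 FPKM in WT (SD, n = 3 each). Rps27, a zinc finger protein of the small subunit, followed with 2575 ± 147 FPKM in KO and 2586 ± 169 FPKM in WT. Those 2 did not differ beyond their spread. Rpl8, Rpl32 and Rpl4 came next at a mean of 1661, 1649 and 1596 FPKM over the 6 libraries. In all, 10 members exceeded 1000 FPKM and 15 were under 100, with a median of 312.3. The lowest were Rps19bp1 (13.7 FPKM), Rpl35 (26.6), Rpl7l1 (33.6), Rps28 (33.9) and Rps27l (35.9). These levels depend on the transcript length that the authors used. For 33 members the length implied by the deposited values differs by more than 10% from the summed exons in GENCODE M21, as for Rps27 with 255 against 1043 bases.

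**Figure D2:**
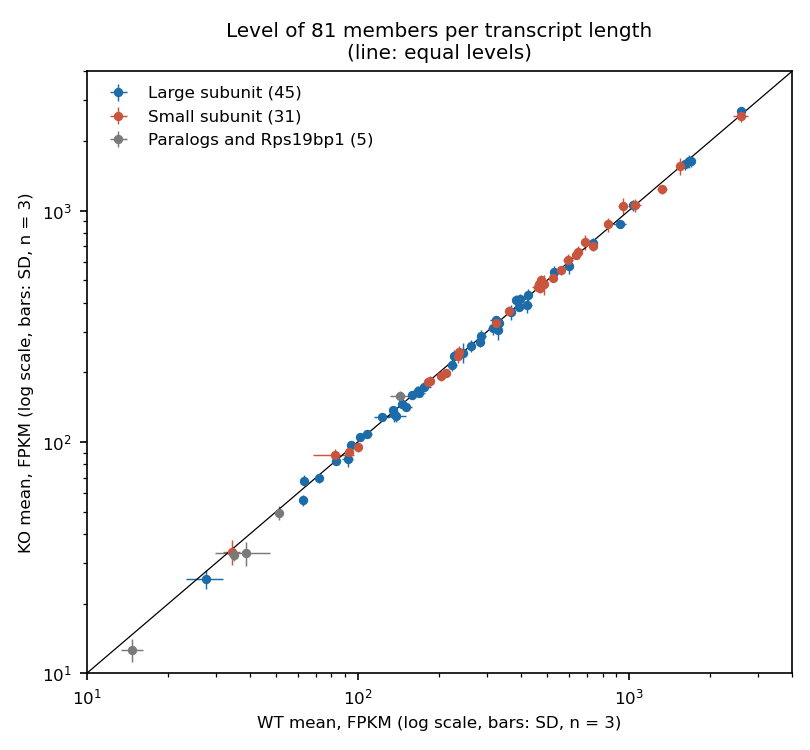
Mean FPKM of each member in KO (vertical) against WT (horizontal), both on log scales, with SD bars over 3 libraries. The points follow the line of equal levels from Rps19bp1 at 13.7 FPKM to Rplp1 at 2643 FPKM over all libraries.

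The stalk genes were close between genotypes. Rplp0, the scaffold of the stalk, had 1666, 1753 and 1872 CPM in KO replicates 4, 5 and 6, against 1760, 1733 and 1699 CPM in WT replicates 1, 2 and 3. Rplp1 had 1290, 1316 and 1408 CPM in KO, against 1277, 1261 and 1337 CPM in WT. In both genes KO replicate 6 was the highest library and the groups overlapped. The log2 fold change was 0.03 for Rplp0, 0.05 for Rplp1 and 0.07 for Rplp2, the partner of Rplp1.

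Rpl5 and Rpl11 bind the 5S ribosomal RNA and, when ribosome assembly fails, hold the p53 regulator Mdm2. Rpl5 had 252, 278 and 276 CPM in KO, against 254, 244 and 251 CPM in WT. Replicates 5 and 6 of KO stood above all WT libraries and replicate 4 did not. Its log2 fold change of 0.11 (SE 0.06) was the highest of the large subunit and had an adjusted p of 0.290 in edgeR. Rpl11 had 283, 277 and 296 CPM in KO, against 287.5, 267 and 276 CPM in WT, a log2 fold change of 0.04.

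Among the other large subunit genes, Rpl39, a small protein of the exit tunnel, stood lowest. Rpl39 (ENSMUSG00000079641, chromosome X, 37082520 to 37085402, minus strand, GRCm38) had 75.8, 84.8 and 81.4 CPM in KO, against 91.8, 91.8 and 87.5 CPM in WT. It was the 1 member whose groups did not overlap, with every KO library below every WT library, an arrangement found for 12.6% of all genes. No member had all KO libraries above WT, against 13.7% of all genes. The log2 fold change of Rpl39 was -0.16 (SE 0.06, 95% interval -0.29 to -0.03), and its adjusted p was 0.134 in edgeR, the lowest of all members. Leaving out each library in turn kept it between -0.20 and -0.12.

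Rpl31 and Rpl35, at the rim of the tunnel exit, and Rpl37 were among the next lowest in the large subunit. Rpl31 had 111, 97.0 and 112.5 CPM in KO, against 118, 108 and 119 CPM in WT. Rpl37 had 261, 242 and 293 CPM in KO, against 279, 296 and 285 CPM in WT. The groups overlapped in both, with log2 fold changes of -0.11 each and adjusted p-values of 0.391 and 0.384 in edgeR. Rpl35 had 35.4, 29.3 and 31.3 CPM in KO, against 37.0, 28.1 and 37.9 CPM in WT, and shares exon sequence with Arpc5l and Wdr38 on the opposite strand. The sources used here do not state whether reads were counted by strand, so reads of such neighbours cannot be told apart. Of the members, 22 overlap an exon of another tested gene, host genes of small nucleolar RNAs included.

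Rpl14, a protein of the large subunit surface, had 361, 387 and 408 CPM in KO, against 372, 358 and 351 CPM in WT, a log2 fold change of 0.10 (adjusted p 0.361, edgeR). Rpl10, which is loaded last at the subunit interface, had 322.5, 349 and 360 CPM in KO, against 330, 355 and 344 CPM in WT, a log2 fold change of 0.00. Rpl38, known in mice for its part in translating Hox mRNAs, had 156, 146 and 168 CPM in KO, against 162, 154 and 150 CPM in WT, a log2 fold change of 0.01. Rpl13a, known in human cells for a role in silencing inflammatory mRNAs after interferon gamma, had 1630, 1730 and 1892 CPM in KO, against 1907, 1801 and 1803 CPM in WT. Its log2 fold change was -0.07. All 4 had overlapping groups.

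In the small subunit Rps12 had the highest fold change. Rps12 (ENSMUSG00000061983, chromosome 10, 23785183 to 23787275, minus strand, GRCm38) had 466, 494 and 546 CPM in KO, against 441, 449 and 476.5 CPM in WT. KO replicates 5 and 6 stood above all WT libraries, while KO replicate 4 lay below WT replicate 3. The log2 fold change was 0.14 (SE 0.06, 95% interval 0.005 to 0.28) and the adjusted p was 0.210 in edgeR. Leaving out each library gave 0.08 to 0.19. The gene hosts small nucleolar RNAs in its introns.

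Rps6, the substrate of the S6 kinases, had 376, 385 and 417 CPM in KO, against 379, 371 and 375 CPM in WT, a log2 fold change of 0.07. Rps3, at the mRNA entry, had 1426, 1443 and 1567 CPM in KO, against 1515, 1421 and 1433 CPM in WT, a log2 fold change of 0.02. Rps19, whose human gene is the one most often mutated in Diamond-Blackfan anaemia, had 439, 432 and 475 CPM in KO, against 483, 447 and 480 CPM in WT, a log2 fold change of -0.07. Rpsa, also known as a laminin receptor, had 1150, 1261 and 1310 CPM in KO, against 1220, 1210 and 1213 CPM in WT, a log2 fold change of 0.03. In each of the 4 the groups overlapped.

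Rps29 and Rps28 were the least precise of the small subunit. Rps29 had 64.9, 56.9 and 62.3 CPM in KO, against 62.0, 46.1 and 64.4 CPM in WT, where replicate 2 alone was low, and its log2 fold change was 0.09 (SE 0.12). Rps28 had 49.8, 42.8 and 55.3 CPM in KO, against 50.2, 46.8 and 54.2 CPM in WT, a log2 fold change of -0.03.

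Neither subunit stood apart from the other. Large subunit genes had a median log2 fold change of -0.01 (18 above and 27 below 0, range -0.16 to 0.11), and small subunit genes a median of 0.01 (18 above and 13 below, range -0.10 to 0.14). The counts of the large subunit over those of the small were 1.28, 1.29 and 1.29 in KO replicates 4, 5 and 6, against 1.30, 1.31 and 1.29 in WT replicates 1, 2 and 3. KO replicate 5 lay above WT replicate 3, so the groups overlapped. The fold change of a member had a Spearman rho of 0.23 with its mean FPKM over the 81 genes, which share the 6 libraries.

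Differences between single libraries exceeded the difference between genotypes. The median deviation of the 81 genes from their own mean was -0.06, -0.03 and 0.08 on the log2 scale in KO replicates 4, 5 and 6, and 0.03, -0.04 and 0.01 in WT replicates 1, 2 and 3. KO replicate 6 was the highest library for 52 of the 81 genes, and 77 were above their own mean there. KO replicate 4 was the lowest library for 36 genes, WT replicate 2 for 25 and KO replicate 5 for 17. Both subunits showed this order at its ends: the large subunit medians in KO were -0.06, -0.02 and 0.08, and those of the small subunit -0.05, -0.03 and 0.10. Over all genes with at least 20 CPM the library medians stayed within 0.01 of 0, which the scaling of the libraries largely fixes in advance.

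Some other translation lists shared the ends of the members' library order and others did not. Mitochondrial ribosomal proteins (50 at this level) had medians of -0.05, 0.00 and 0.06 in KO and -0.02, 0.02 and 0.00 in WT. Elongation factors (14) had -0.05, 0.00 and 0.07 in KO and -0.05, 0.00 and -0.01 in WT. Initiation factors (37) had -0.07, 0.02 and 0.03 in KO and -0.01, 0.01 and -0.01 in WT. In each of these lists KO replicate 6 was the highest library, as for the members. KO replicate 4 was the lowest in the mitochondrial and initiation lists, also as for the members. In the elongation list WT replicate 1 (-0.047) and KO replicate 4 (-0.045) were nearly level. Each was the lowest library for 5 of those 14 genes. The genes of mTORC1, S6 kinases, La-related proteins and Myc (25) had 0.05, -0.05 and -0.01 in KO and 0.01, 0.03 and 0.01 in WT, with KO replicate 4 highest. RNA polymerase I factors (13) had 0.01, -0.04 and 0.04 in KO and -0.00, -0.03 and 0.00 in WT. B cell marker sums were 1799, 2129 and 1820 CPM in KO replicates 4, 5 and 6, and their part in the library order was not tested. Adjusted for the mean log2 CPM of the B cell markers (the B cell score), edgeR called 0 members, but only 47 of all 13626 genes. The score ran from 4.86 to 5.51 in KO and from 5.90 to 7.25 in WT. Because the groups did not overlap in the score, this fit can hardly tell genotype from score, and its 0 carries little weight.

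**Figure D3:**
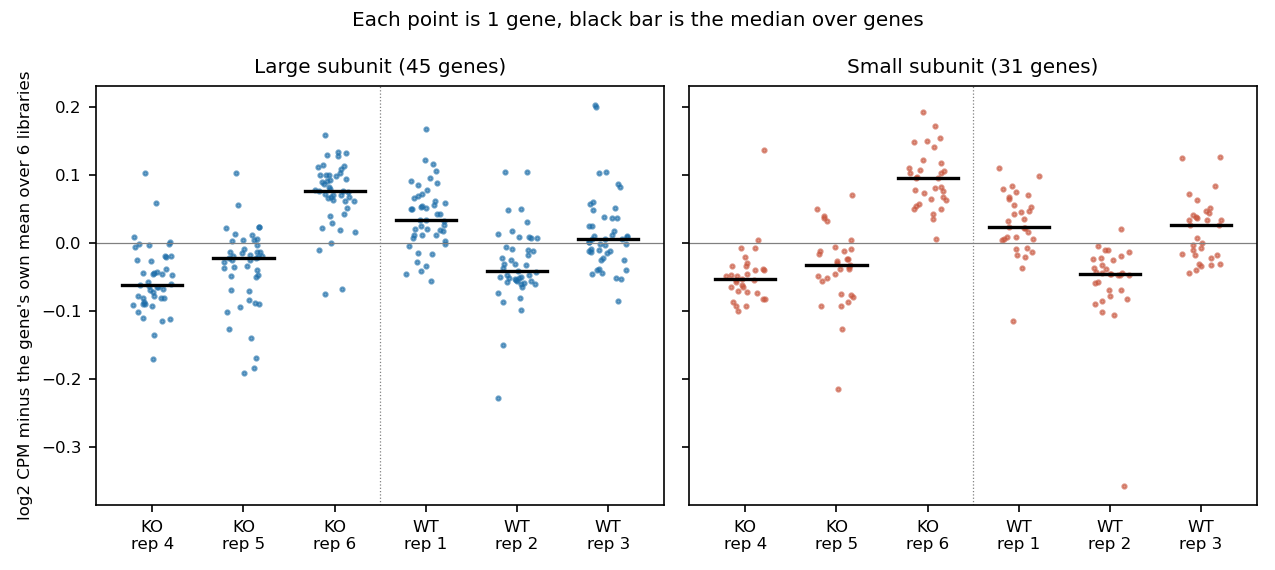
Deviation of each gene's log2 CPM from its own mean over 6 libraries, for 45 large subunit genes (left) and 31 small subunit genes (right). Each point is 1 gene and black bars are medians, with KO libraries left of the dotted line. KO replicate 6 is the highest and KO replicate 4 the lowest by the median in both panels.

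By FPKM, Rpl22l1 was the highest of the paralogs relative to its parent, a rank that depends on the lengths used. Rpl22l1 (ENSMUSG00000039221, chromosome 3, 28805436 to 28807424, plus strand) and Rpl22 bind RNA, and in mouse cells Rpl22 represses Rpl22l1. Rpl22l1 had 72.8, 81.04 and 78.9 CPM in KO, against 68.0, 65.6 and 77.1 CPM in WT. KO replicates 5 and 6 stood above all WT libraries and KO replicate 4 below WT replicate 3. The log2 fold change was 0.14 (SE 0.07, 95% interval -0.01 to 0.30), with an adjusted p of 0.265 in edgeR. Rpl22 had 386, 404 and 415 CPM in KO, against 398, 386 and 397 CPM in WT, a log2 fold change of 0.03. The FPKM of Rpl22l1 was 112%, 119% and 113% of that of Rpl22 in KO, against 102%, 101% and 116% in WT. This ratio rests on an implied length of 489 bases for Rpl22l1, against 1989 in GENCODE M21. The rank was not kept in CPM. Mean CPM was 77.6 for Rpl22l1 against 402 for Rpl22 in KO, and 70.2 against 394 in WT. For Rpl36al against Rpl36a it was 67.1 against 161 in KO, and 69.8 against 157 in WT.

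Rps27l, a p53 target gene whose protein closely resembles Rps27, stood far below its parent. Rps27l (ENSMUSG00000036781, chromosome 9, 66946086 to 66949516, plus strand) had 23.5, 28.0 and 30.0 CPM in KO, against 25.9, 39.8 and 29.3 CPM in WT. Replicate 2 of WT was high and the other 5 libraries overlapped. The log2 fold change was -0.22 (SE 0.16), with an adjusted p of 0.505 in edgeR, and became -0.02 without WT replicate 2. Without WT replicates 1 and 3 that high library is the only WT one, and Rps27l was then lower in KO at -0.55 (adjusted p 0.0436, edgeR). Its FPKM was 1.19%, 1.29% and 1.36% of that of Rps27 in KO, against 1.16%, 2.03% and 1.36% in WT. These percentages depend on an implied length of 255 bases for Rps27, against 1043 in GENCODE M21.

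Rpl7l1, a paralog of Rpl7 that acts in assembly of the large subunit, had an FPKM of 9.18%, 8.82% and 8.73% of that of Rpl7 in KO, against 9.67%, 9.35% and 9.38% in WT. Rpl36al stood at 48.3%, 51.7% and 52.5% of Rpl36a in KO, against 53.9%, 56.0% and 53.1% in WT. In both pairs the ratio of every KO library was below that of every WT library. How often such ratios separate by chance was not tested, and those of Rpl22l1 and Rps27l to their parents overlapped. In CPM, the groups overlapped for Rpl7l1 and for Rpl36al. These genes had log2 fold changes of only -0.10 and -0.06, with adjusted p-values of 0.357 and 0.671 in edgeR. Rps19bp1 had 10.1, 11.9 and 9.76 CPM in KO, against 12.3, 13.4 and 11.1 CPM in WT, a log2 fold change of -0.21 (SE 0.13, adjusted p 0.368, edgeR).

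**Figure D4:**
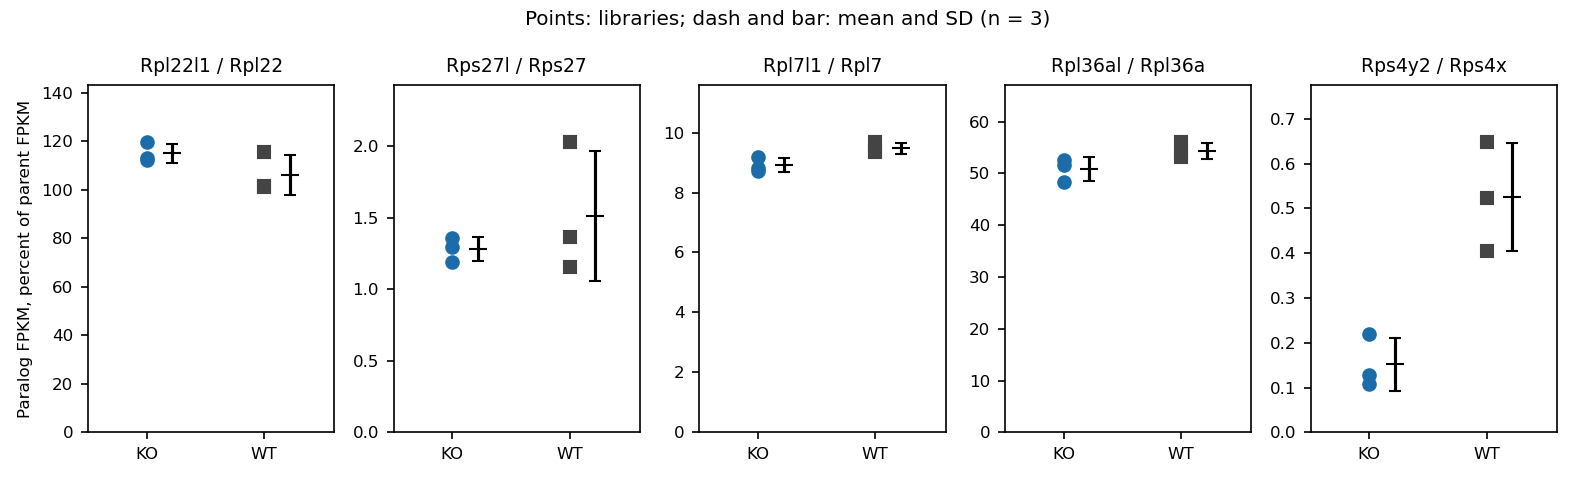
FPKM of each paralog as a percent of its parent's FPKM, by library (points), with the mean and SD over 3 libraries, KO left of WT; each axis starts at 0. Rpl22l1 lies at 101% to 119% of Rpl22 and Rps27l at 1.16% to 2.03% of Rps27.

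Several genes that share the names stayed outside the 81. Rps4y2, which GENCODE and RefSeq annotate as Rps4l, a transcribed pseudogene (chromosome 6, 148354656 to 148355598, plus strand), had a mean of 30.1 normalized counts. It had 20, 12 and 11 counts in KO, against 38, 54 and 42 counts in WT, with no overlap, and was lower in KO by edgeR at a log2 fold change of -1.75 (SE 0.34, 95% interval -2.48 to -1.02, adjusted p 0.00924). Without KO replicate 6 the adjusted p was 0.0542, and adjusted for the B cell score it was 0.125. Its FPKM was 0.219%, 0.129% and 0.108% of that of Rps4x in KO, against 0.405%, 0.647% and 0.523% in WT. Rps4x, the gene it resembles, had 753, 768 and 840 CPM in KO, against 769.5, 750 and 769 CPM in WT.

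Rpl39l, the testis-enriched copy of Rpl39, had 6, 3 and 3 counts in KO, against 16, 11 and 5 in WT. Rpl3l, the muscle form of Rpl3, had at most 4 counts in any library, and Rpl10l, the testis form of Rpl10, at most 3. The row named Rpl24 carries the gene ID that GENCODE M21 assigns to Zbtb11, a zinc finger gene, and was left out for that reason. Its log2 fold change was -0.12 (adjusted p 0.178, edgeR). Every KO library of that row stood below every WT library in CPM, an arrangement found for 12.6% of all genes. Rpl24 itself was not analysed here.

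Other genes of the translation machinery moved little. The lists were read against the edgeR shares of all genes: 6.50% called and 21.8% with an unadjusted p under 0.05. Of 3 ribosome components under other names, Fau and Rack1 among them, 0 were called by edgeR, DESeq2 or limma-voom, and 0 had an unadjusted p under 0.05. Fau had 404, 423 and 491 CPM in KO, against 501, 435 and 463 CPM in WT. Of 17 elongation and termination factors, 0 were called by edgeR or limma-voom, 1 was higher by DESeq2, and 3 had an unadjusted p under 0.05 in edgeR. The median log2 fold change was 0.04. Eif5a, which relieves stalled ribosomes, was at 0.18 (adjusted p 0.0526) and Eef1e1 at 0.20 (adjusted p 0.211) in edgeR. Of 76 mitochondrial ribosomal proteins, 0 were called by any of the 3 tools, 9 had an unadjusted p under 0.05 and the median was 0.01. Mrps24 was at -0.19 (adjusted p 0.134) and Mrpl3 at 0.16 (adjusted p 0.137).

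Genes of ribosome biogenesis lay more often above than below WT. Of 63, 49 had a log2 fold change above 0 and 14 below, with a median of 0.05. In 19 (30.2%) every KO library stood above every WT library, against 13.7% of all genes, and in 0 every KO library stood below, against 12.6%. Median deviations over these genes were 0.02, 0.05 and 0.03 in KO and -0.02, -0.01 and -0.05 in WT. Of the 63, 2 rose in KO by edgeR and 0 fell, against 3.68% and 2.83% of all genes. An unadjusted p under 0.05 was found for 17 of them, against 21.8% of all genes. Ltv1, a factor for export and maturation of the small subunit, had 56.1, 63.8 and 59.9 CPM in KO, against 49.6, 48.0 and 49.6 CPM in WT, a log2 fold change of 0.29 (SE 0.07, adjusted p 0.0200). Ncl, nucleolin, had 1162, 1281 and 1247 CPM in KO, against 1038, 1105 and 1076 CPM in WT, a log2 fold change of 0.20 (SE 0.05, adjusted p 0.0486).

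Each of those 2 calls was lost when any of 4 single libraries was left out (KO replicates 5 and 6, WT replicates 1 and 3), with adjusted p-values up to 0.0958 for Ltv1 and 0.197 for Ncl. Calls over all genes also fell in those fits, from 886 to 419, 408, 460 and 367 in that order. They were 768 without KO replicate 4 and 1364 without WT replicate 2. The calls lost below are to be read against the same totals. Of 15 RNA polymerase I and rDNA factors, 0 were called by edgeR, DESeq2 or limma-voom. In edgeR 2 had an unadjusted p under 0.05, against 21.8% of all genes. The 2 were Taf1d at 0.22 (adjusted p 0.0540) and Taf1b at 0.21 (adjusted p 0.0904) in edgeR. Both are subunits of the factor that selects the rDNA promoter. The median of that list was -0.01.

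Of 39 initiation factors, 1 rose by edgeR, with a list median of 0.00. Eif1, which guards the choice of start codon, had 276.5, 273 and 290 CPM in KO, against 242, 248 and 246 CPM in WT, a log2 fold change of 0.19 (SE 0.05, adjusted p 0.0428). Of 32 genes of mTORC1, S6 kinases, La-related proteins and Myc, 1 rose and 1 fell, with a median of -0.07. Cnbp, a nucleic acid binding protein that acts on TOP mRNAs, had 473, 490 and 487 CPM in KO, against 421, 419.5 and 427 CPM in WT (log2 fold change 0.19, adjusted p 0.0322). Eif4ebp2, an inhibitor of cap-dependent initiation, had 135, 117 and 115 CPM in KO, against 152.5, 142 and 144.5 CPM in WT (log2 fold change -0.25, adjusted p 0.0409). In all 3 the groups did not overlap. KO stood wholly above WT in 13.7% of all genes and wholly below in 12.6%. The 3 genes were named because they were called, so the lack of overlap adds no support. Eif1 and Cnbp each lost their call in 5 of the 6 fits that left out a library, all but that without KO replicate 4, and Eif4ebp2 in 4, those without KO replicates 5 or 6 or WT replicates 1 or 3. The adjusted p reached 0.158 for Eif1, 0.121 for Cnbp and 0.161 for Eif4ebp2.

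Noncoding host genes of small nucleolar RNAs held 3 calls among 7 tested, all higher in KO, of 19 listed. Snhg12 had 46.4, 48.7 and 44.6 CPM in KO, against 34.7, 32.7 and 37.2 CPM in WT, a log2 fold change of 0.42 (SE 0.07, adjusted p 0.00532, edgeR). It was called in every fit that left out 1 library. Snhg15 had 39.9, 37.1 and 40.2 CPM in KO, against 30.6, 32.4 and 24.4 CPM in WT (log2 fold change 0.42, SE 0.10, adjusted p 0.0244). Gas5, whose RNA begins with a TOP tract like the mRNAs of ribosomal proteins, had 256, 262 and 262 CPM in KO, against 229, 228.5 and 230 CPM in WT (log2 fold change 0.18, SE 0.05, adjusted p 0.0449). The other 4 did not pass, and the list median was -0.01. Snhg15 lost its call without KO replicate 4, 5 or 6 or WT replicate 3, with adjusted p up to 0.0996, and Gas5 without any library but KO replicate 4, with adjusted p up to 0.149.

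Of 12 nucleolar stress and p53 target genes, 2 rose and 0 fell by edgeR, with a median of -0.00; the list includes Rps27l. Cdkn1a, an inhibitor of cyclin-dependent kinases, had 9.29, 12.6 and 9.90 CPM in KO, against 4.27, 5.82 and 4.54 CPM in WT, a log2 fold change of 1.12 (SE 0.17, adjusted p 0.00212). Pmaip1, which encodes the apoptosis protein Noxa, had 40.2, 49.2 and 43.9 CPM in KO, against 24.4, 26.5 and 31.4 CPM in WT, a log2 fold change of 0.70 (SE 0.10, adjusted p 0.00212). Both were called whichever library was left out. B cell markers moved with the same groups, as given above. Adjusted for the B cell score, edgeR called 0 genes in every one of these lists, but only 47 of all 13626 genes, against 886 unadjusted. The score did not overlap between genotypes, so the part of B cells in this loss of calls was not tested. In that fit the log2 fold change was 0.92 for Cdkn1a (adjusted p 0.339), 0.78 for Pmaip1 (adjusted p 0.179) and 0.59 for Snhg12 (adjusted p 0.125). Without WT replicates 1 and 3, Pmaip1 (adjusted p 0.00282) and Snhg12 (0.0199) were called by edgeR and Cdkn1a was not (0.0620).

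**Figure D5:**
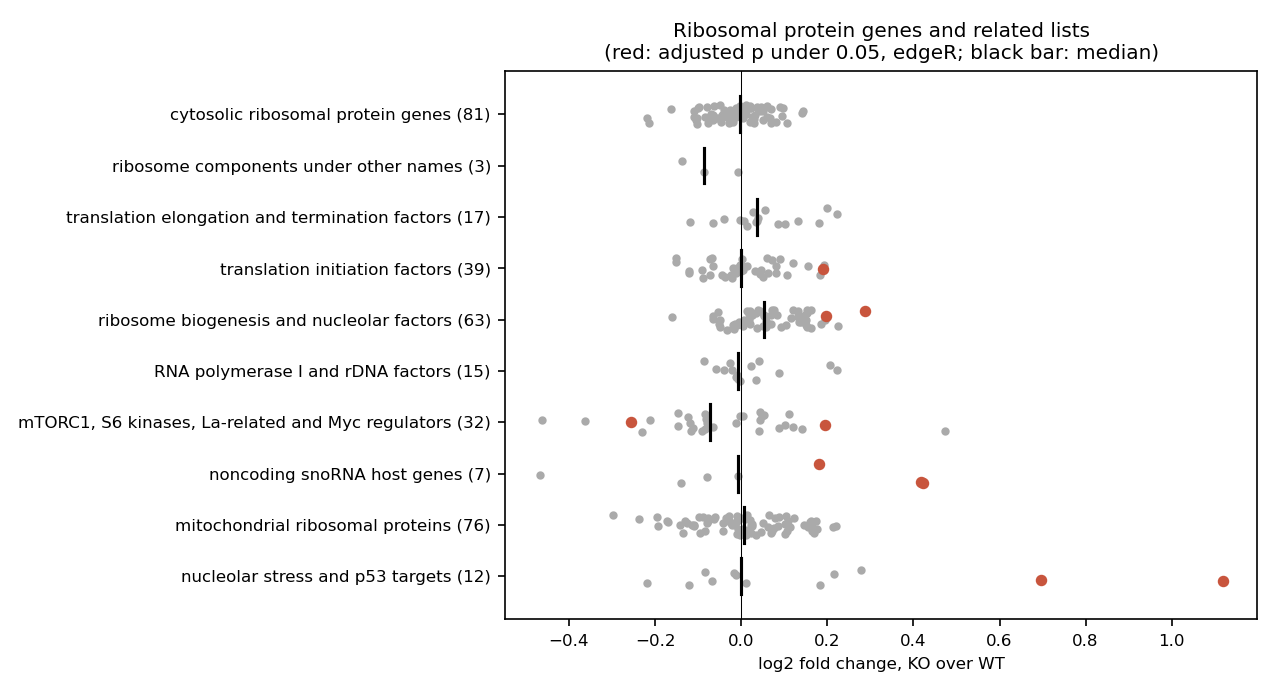
Log2 fold change, KO over WT, of the 81 ribosomal protein genes and of related lists, with the number of tested genes in brackets. Each point is 1 gene, black bars are medians and red points have an adjusted p under 0.05 in edgeR. The 81 members cluster at 0 with no red point, while Cdkn1a at 1.12 and Pmaip1 at 0.70 stand at the right.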

How the data were processed

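RNA of 6 libraries of sorted Tregs was analysed from deposited tables. The submitters' processing notes name bcl2fastq, STAR 2.4.2a, DESeq2 and the build GRCm38, and the sources used here do not state the counter, its strand setting or the annotation. As deposited by the authors, the tables hold raw counts by Ensembl ID, and by symbol normalized counts (treated as a signal) and FPKM. Among 9335 genes checked, at least 99.9% had a deposited normalized count equal to the raw count divided by a single library factor, within 1e-06. Library pairs of 1 group differed by a chi-square of 5.16 to 14.6 per degree of freedom, so none was counted as a duplicate.

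The test was the robust quasi-likelihood fit of edgeR 4.0.16 (R 4.3.3) on raw counts with TMM factors, two-sided, after filterByExpr, with Benjamini-Hochberg adjustment over 13626 genes and a threshold of 0.05; the script was tested on simulated data. CPM use the TMM factors. GENCODE M21 gave positions for 35412 of 37187 IDs. Alternatives were DESeq2 1.42.0, limma-voom (limma 3.58.1), other factors and filters, limma on log2 FPKM (pseudocount 1 or 0.1) and on log2 normalized counts (pseudocount 1), a B cell score as covariate, and libraries left out.

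The members and lists were chosen with earlier results of these data known. Named were members at the extremes of level and fold change, paralog pairs, and up to 4 called genes per related list or up to 2 as values where none passed; further members were named for a textbook role after their values were seen; single values of a few genes are not reported here.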

Additional observations from a re-analysis of the deposited data

How the results depend on the processing

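Under 19 alternatives the number of ribosomal protein genes called higher in KO was 0 throughout, and the number called lower was 0 except for 1, Rps27l, without WT replicates 1 and 3, where 1 WT library remains and is taken to vary as the KO libraries do. The members' median log2 fold change stayed between -0.04 and 0.04, that of large subunit genes between -0.05 and 0.03 and that of small subunit genes between -0.03 and 0.06, each moving by less than the SD of the library medians (0.058). Of the 52 named genes, related lists and markers included, 16 were called; the number was 0 after adjusting for the B cell score, 6 without WT replicates 1 and 3, 5 with log2(FPKM + 1), 5 with log2(FPKM + 0.1), and 5 to 14 when 1 library was left out. Calls over all genes changed as well, from 886 to 47 with the B cell score and to between 367 and 1364 with 1 library left out. The cause was not tested. No called gene changed sign, and 24 of 670 uncalled values did. No paired analysis was possible because KO and WT share no replicate number. The libraries' spread (median SE 0.057 on the log2 scale), 3 libraries a group and lengths unlike the annotation limit what these values show; a member under about 30 CPM, such as Rps27l or Rps19bp1, is the least certain.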
